A study of Mus musculus with 40 samples.

Results

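Zp1, Zp2 and Zp3 encode the proteins of the zona pellucida, the glycoprotein coat of the mouse egg, and Gdf9 and Bmp15 encode growth factors that the oocyte secretes. The level of these 5 genes, of 14916 genes tested, was followed in embryos of 3 origins at the 1-cell and 2-cell stages, with and without α-amanitin. The genes were chosen by name. Each was read from probe sets (groups of short probes for one transcript) annotated to that gene and no other, and where there were several, from the one with the highest mean over the arrays. Bmp15 had 3 such probe sets and the other 4 genes had 1 each. All 5 passed the filter on dim probe sets, and each lay above the overall median log2 level of 5.34 on all 39 arrays.

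The embryos were B6D2, a hybrid mouse background, and were fertilized, parthenogenetic (an egg activated without sperm) or made by somatic cell nuclear transfer (SCNT), in which a donor nucleus replaces that of the egg. The label of 1 SCNT sample names the donor as a cumulus cell, a somatic cell that surrounds the egg. Poly(A) RNA was hybridized to Affymetrix mouse arrays, with 10 groups: untreated fertilized, SCNT and parthenogenetic embryos at each stage, and fertilized and SCNT embryos at each stage grown in α-amanitin, which blocks RNA polymerase II. Of 40 arrays, 39 had values. The column of untreated 1-cell SCNT replicate 2 was empty, so that group has n = 3 and every other group n = 4. A letter A in the sample code was taken as amanitin: the label of 1 SCNT sample spells it out, and the design text lists amanitin groups for fertilized and SCNT embryos. The medium is labelled MEMα on 2 SCNT samples and KSOM on 1 fertilized sample, so medium and origin cannot be told apart. The labels do not say whether replicates came from separate cultures or mothers, so p-values measure only the spread between these samples.

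As background, the zona proteins are made during oocyte growth, polymerize into filaments around the egg, bind sperm, and after fertilization are modified so that further sperm are kept out. GDF9 and BMP15 are members of the TGF-beta family that act on the surrounding granulosa and cumulus cells through type I and type II receptor kinases and SMAD proteins. All 5 transcripts are products of the growing oocyte that the fertilized egg inherits, and much of the inherited RNA is cleared by the 2-cell stage, when the mouse embryo begins its main wave of transcription.

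The genes lie on different chromosomes in RefSeq's annotation of GRCm38.p6. Zp1 is at chr19:10914296-10920601, Zp2 at chr7:120126762-120145291, Zp3 at chr5:135980105-135988624, Gdf9 at chr11:53430774-53437904 and Bmp15 at chrX:6314054-6320724. RefSeq promoter sequence was matched for 2 of the 5 genes, Zp3 and Bmp15. It is shown because FIGLA, an oocyte transcription factor known to act on zona genes, binds E-boxes, and NOBOX, another oocyte factor, binds sites such as TAATTA. The 250 bases before each start are given 5′ to 3′ on the strand of the gene, at chr5:135979855-135980104 on the plus strand for Zp3 and chrX:6320725-6320974 on the minus strand for Bmp15, with E-boxes (CANNTG) in capitals.
Zp3: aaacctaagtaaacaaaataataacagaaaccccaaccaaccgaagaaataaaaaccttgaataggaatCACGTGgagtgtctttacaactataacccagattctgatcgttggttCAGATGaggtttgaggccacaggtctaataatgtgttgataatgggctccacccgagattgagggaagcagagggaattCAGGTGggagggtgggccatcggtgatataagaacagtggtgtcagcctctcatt
Bmp15: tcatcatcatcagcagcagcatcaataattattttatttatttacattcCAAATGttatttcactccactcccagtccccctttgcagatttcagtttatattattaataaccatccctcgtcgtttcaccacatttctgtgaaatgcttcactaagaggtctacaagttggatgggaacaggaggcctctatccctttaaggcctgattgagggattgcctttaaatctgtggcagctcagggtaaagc
The Zp3 promoter held 3 E-boxes, CACGTG at -181, CAGATG at -134 and CAGGTG at -55, counted from the start of the gene to the first base of the motif. The Bmp15 promoter held 1, CAAATG at -201, and a TAATTA at -225. Both strands were searched, and CANNTG reads the same on both. Of 32851 RefSeq mouse promoters of this length, 66.2% held at least 1 CANNTG, 12.2% held 3 or more and 4.84% held TAATTA. The motif TAATTG was searched likewise and is in 7.17% of promoters but is in neither window. TATAAA is in 12.4% of promoters, and the Bmp15 window holds it once on the other strand, read as TTTATA at -155.

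Values below are log2 of the deposited intensity plus 6.9, quantile normalized across arrays, and are called levels. Log2 differences are on that scale, which understates the change of dim transcripts. Adjusted p-values are limma's, 2-sided and adjusted by Benjamini-Hochberg over the 14916 genes, and a gene passed at 0.05. Levels of different genes come from different probes and are not compared. Each array holds RNA of whole embryos, so fewer cells with a transcript and less transcript per cell cannot be told apart.

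Several array-wide measures moved with the groups. Across genes, the correlation between replicates was 0.9397 to 0.9797, lowest in 2-cell SCNT embryos with amanitin. The array's hybridization control probe sets had a mean level of 10.88 in that group and of 9.52 to 10.04 in the other 9, and 18S ribosomal RNA stood at 10.25 to 11.22 in untreated 2-cell groups and at 12.72 to 13.25 in the other 7 groups. The poly(A) spike controls were near background in 1-cell SCNT embryos without and with amanitin (3.62 and 3.75) and stood at 6.19 to 10.36 elsewhere. Of 12 egg and maternal-effect markers, 10 were tested, and their mean level was 11.20 to 11.90 on 1-cell arrays and 8.55 to 10.87 on 2-cell arrays. Of 8 markers of 2-cell transcription, 6 were tested, with means of 10.30 to 10.85 on untreated 2-cell arrays and 4.83 to 6.25 on all others. Of 18 cumulus and granulosa markers, 12 were tested. Their summed intensity was 991.3 to 1541 on 1-cell arrays and on 2-cell arrays with amanitin, 1500 to 1856 in 2-cell parthenogenetic embryos, and 3685 to 5277 in untreated 2-cell fertilized and SCNT embryos. The high sums rest on Amhr2, a receptor of granulosa cells with group means of 5.55 in 1-cell and 11.35 in 2-cell fertilized embryos, and Nr5a2 (8.91 and 10.31), both singled out after their values were seen. Without them the other 10 summed to 409.3 to 596.9 in untreated 2-cell fertilized and SCNT embryos and to 502.7 to 808.6 on 1-cell arrays. They summed to 515.9 to 633.5 in 2-cell parthenogenetic embryos. With amanitin at the 2-cell stage the sums were 799.3 to 982.5 in fertilized and 751.5 to 931.5 in SCNT embryos. Has2, the hyaluronan synthase of cumulus cells, had group means of 4.86 to 5.86, near the overall median. Other markers of this list lay higher, such as Foxl2 with group means of 6.92 to 8.02 and Cyp11a1 with 5.13 to 7.48. The part of these measures in the results below was not tested.

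**Figure D1:**
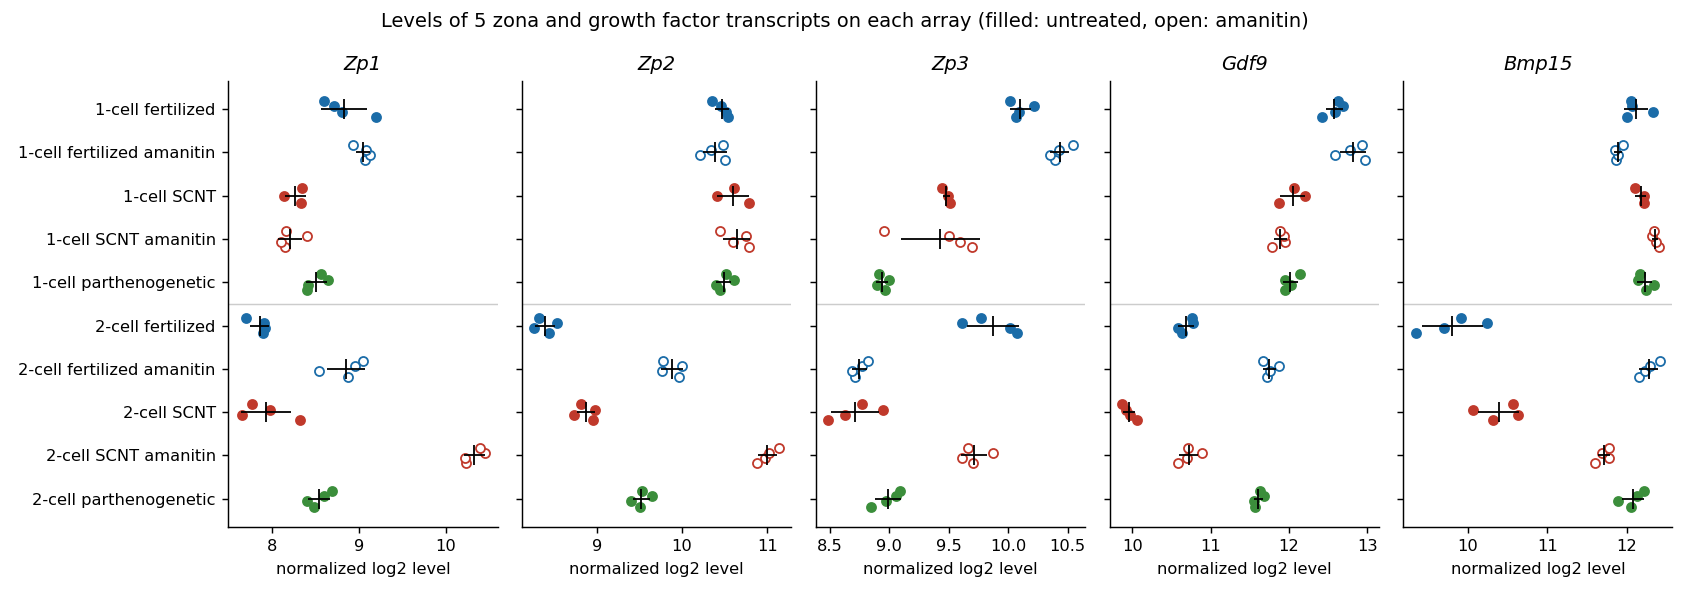
Normalized log2 level (x axes) of Zp1, Zp2, Zp3, Gdf9 and Bmp15 on each of 39 arrays, by group (rows). Circles are arrays, filled for untreated and open for amanitin, in blue for fertilized, red for SCNT and green for parthenogenetic embryos; the vertical tick is the group mean and the horizontal line its SD. On this scale Zp1 and Zp2 are highest in 2-cell SCNT embryos with amanitin, and Bmp15 is lowest in untreated 2-cell fertilized embryos. Scaled to the hybridization controls, Zp2 in 2-cell SCNT embryos with amanitin is below 1-cell SCNT embryos with amanitin, at -0.50. With that scaling Zp1 in 2-cell SCNT embryos with amanitin is below 1-cell fertilized embryos with amanitin.

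Zp1, which encodes the protein that crosslinks zona filaments, was highest in 2-cell SCNT embryos with amanitin. Its levels there were 10.23, 10.22, 10.46 and 10.39, against 8.32, 7.66, 7.98 and 7.77 in untreated 2-cell SCNT embryos and 8.15, 8.11, 8.41 and 8.16 in 1-cell SCNT embryos with amanitin. These groups did not overlap, and the next group in the order of means lay 1.28 lower. The log2 difference was 2.39 (SE 0.13, adjusted p = 1.57e-19) from untreated 2-cell SCNT embryos and 2.12 (SE 0.13, adjusted p = 1.67e-17) from the 1-cell SCNT embryos with amanitin. Scaled to the hybridization controls, which move the median of all genes in these comparisons, the differences were 0.94 and 1.16, and both still passed. With that scaling 1-cell SCNT embryos with amanitin differed from 1-cell fertilized ones with amanitin by -1.33. Zp1 in 2-cell SCNT embryos with amanitin then lay below 1-cell fertilized embryos with amanitin and was no longer highest.

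In fertilized embryos Zp1 was 9.20, 8.81, 8.72 and 8.60 at the 1-cell stage and 7.89, 7.92, 7.90 and 7.70 at the 2-cell stage. Every 2-cell array lay below every 1-cell array, and Zp1 fell by 0.98 on the log2 scale (SE 0.13, adjusted p = 1.54e-08). With amanitin it was 9.07, 9.13, 9.08 and 8.94 at the 1-cell stage and 8.87, 8.55, 8.95 and 9.05 at the 2-cell stage, and these overlapped (-0.20, adjusted p = 0.23). Scaled to array medians or to the hybridization controls, that difference was -0.85 or -0.86 and passed. The 2-cell amanitin arrays lay above the untreated ones by 1.00 (SE 0.13, adjusted p = 8.47e-09), a difference of 0.45 that did not pass when scaled to the hybridization controls (adjusted p = 0.0662).

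Zp1 in untreated SCNT embryos was 8.34, 8.14 and 8.35 at the 1-cell stage. The 2-cell arrays differed from them by -0.34 (SE 0.14, adjusted p = 0.0322), and 1 of these arrays, replicate 1 at 8.32, lay within the 1-cell range. That call was lost without 1-cell SCNT replicate 1 (-0.31) or 4 (-0.31), or without 2-cell SCNT replicate 2 (-0.25) or 4 (-0.29). Nor did it pass with intensities not normalized further (-0.26, adjusted p = 0.0938) or scaled to the hybridization controls (-0.33, adjusted p = 0.231). Parthenogenetic embryos had 8.40, 8.42, 8.65 and 8.56 at the 1-cell stage and 8.48, 8.40, 8.60 and 8.69 at the 2-cell stage. These ranges overlapped almost completely (0.04, adjusted p = 0.839), although scaling to array medians, which moves all genes down here, turned the difference to -0.45.

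Across the 10 groups, then, the order of Zp1 was 2-cell SCNT with amanitin (10.33 ± 0.12), 1-cell fertilized with amanitin (9.05 ± 0.08), 2-cell fertilized with amanitin (8.85 ± 0.22), 1-cell fertilized (8.83 ± 0.26), 2-cell parthenogenetic (8.54 ± 0.13), 1-cell parthenogenetic (8.51 ± 0.12), 1-cell SCNT (8.27 ± 0.12), 1-cell SCNT with amanitin (8.21 ± 0.14), 2-cell SCNT (7.93 ± 0.29) and 2-cell fertilized (7.86 ± 0.11), each a mean ± SD. In that order the arrays of neighbouring groups overlapped, except between the first and second places and between 1-cell parthenogenetic and 1-cell SCNT embryos.

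Zp2 encodes the zona protein that is cleaved after fertilization by ovastacin, an egg protease. Its means in the 5 groups of 1-cell embryos were 10.39 to 10.64, and every neighbouring pair overlapped. The 4 1-cell fertilized arrays were at 10.54, 10.52, 10.46 and 10.35, the 3 SCNT arrays at 10.79, 10.41 and 10.60, and the 4 parthenogenetic arrays at 10.45, 10.40, 10.61 and 10.51. At the 2-cell stage the groups separated, and no neighbouring pair of 2-cell groups overlapped.

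Untreated 2-cell fertilized embryos had the lowest Zp2, at 8.44, 8.26, 8.53 and 8.32. Untreated 2-cell SCNT embryos stood at 8.95, 8.73, 8.97 and 8.81, and parthenogenetic ones at 9.51, 9.40, 9.64 and 9.52. Zp2 thus fell between the stages in each origin, by 2.08 (SE 0.10, adjusted p = 1.4e-21) in fertilized, by 1.73 (SE 0.10, adjusted p = 5.66e-18) in SCNT and by 0.98 (SE 0.10, adjusted p = 2.28e-11) in parthenogenetic embryos. The fall was smaller in parthenogenetic than in fertilized embryos by 1.10 (SE 0.14, adjusted p = 1.63e-08), and the SCNT and fertilized falls differed by 0.35, which did not pass (adjusted p = 0.0827; 95% interval of the difference 0.06 to 0.63).

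With amanitin, Zp2 at the 2-cell stage was 9.97, 9.77, 10.003 and 9.77 in fertilized embryos and 10.88, 10.97, 11.02 and 11.14 in SCNT embryos. These lay above the untreated arrays without overlap, by 1.49 (SE 0.10, adjusted p = 4.81e-17) and 2.14 (SE 0.10, adjusted p = 4.89e-22). The 1-cell amanitin arrays were at 10.51, 10.21, 10.34 and 10.48 in fertilized and 10.78, 10.60, 10.75 and 10.44 in SCNT embryos. Between the stages with amanitin Zp2 fell by 0.51 in fertilized embryos (adjusted p = 3.26e-05) and was higher by 0.36 in SCNT embryos (adjusted p = 0.00149), but the latter was 0.02 when scaled to array medians and -0.50 when scaled to the hybridization controls.

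Zp3, which encodes the zona protein long studied as a sperm receptor, had 3 separate levels in untreated 1-cell embryos, 1 for each origin. Its levels were 10.06, 10.09, 10.21 and 10.01 in fertilized, 9.51, 9.49 and 9.45 in SCNT, and 8.96, 8.89, 9.001 and 8.91 in parthenogenetic embryos. The 3 origins did not overlap. SCNT embryos were lower than fertilized ones by a log2 difference of -0.61 (SE 0.12, adjusted p = 0.00152), parthenogenetic ones by -1.15 (SE 0.12, adjusted p = 1.01e-09), and SCNT embryos were higher than parthenogenetic ones by 0.54 (SE 0.12, adjusted p = 0.00184). The first of these was -0.43 and did not pass when scaled to the hybridization controls (adjusted p = 0.333).

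At the 2-cell stage Zp3 was 10.07, 10.02, 9.61 and 9.77 in fertilized, 8.49, 8.63, 8.95 and 8.77 in SCNT, and 8.85, 8.97, 9.06 and 9.09 in parthenogenetic embryos. Fertilized arrays stood above all others of that stage without amanitin. The difference from the 1-cell stage was -0.23 in fertilized embryos and did not pass (adjusted p = 0.0895, 95% interval -0.46 to 0.01), was -0.78 in SCNT embryos (SE 0.12, adjusted p = 8.95e-07), and was 0.05 in parthenogenetic embryos (adjusted p = 0.755, 95% interval -0.18 to 0.28). The fertilized difference passed without 2-cell fertilized replicate 1 (-0.30, adjusted p = 0.0377), with intensities not normalized further (-0.26, adjusted p = 0.0428) and scaled to array medians (-0.41, adjusted p = 0.00579). The parthenogenetic one turned to -0.46 when scaled to array medians.

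With amanitin at the 2-cell stage, Zp3 was lower in fertilized and higher in SCNT embryos, but lower in both when scaled to the hybridization controls. Fertilized embryos with amanitin had 8.71, 8.69, 8.77 and 8.82, below every untreated fertilized array, a log2 difference of -1.12 (SE 0.12, adjusted p = 3.69e-11). SCNT embryos with amanitin had 9.70, 9.61, 9.87 and 9.66, above every untreated SCNT array, a difference of 1.01 (SE 0.12, adjusted p = 4.5e-10), which turned to -0.45 when scaled to the hybridization controls, where the median of all genes was -1.05. Relative to that median it was 0.60. The difference between the origins was 2.13 (SE 0.16, adjusted p = 1.38e-13), and 1.19 (adjusted p = 0.000142) when scaled to the hybridization controls.

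The 1-cell amanitin arrays of Zp3 were at 10.39, 10.35, 10.43 and 10.54 in fertilized embryos and at 9.69, 9.59, 9.50 and 8.96 in SCNT embryos. Replicate 4 of the SCNT group stood below the rest, and its 18S level of 12.723 was also below the 13.283 to 13.516 of the other 3 arrays. Between the stages with amanitin Zp3 fell by 1.68 in fertilized embryos (SE 0.12, adjusted p = 3.31e-15). In SCNT embryos it was higher by 0.28 (adjusted p = 0.0393), but turned to -0.24 scaled to array medians and -0.76 scaled to the hybridization controls. That call was lost without 1-cell SCNT amanitin replicate 4 (0.12, adjusted p = 0.362) and without 2-cell SCNT amanitin replicate 1 (0.28, adjusted p = 0.0584) or 3 (0.23, adjusted p = 0.125).

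Gdf9, whose product drives the growth of granulosa cells and the expansion of the cumulus, was highest in 1-cell fertilized embryos with amanitin (mean 12.82), whose arrays overlapped those of untreated 1-cell fertilized embryos (mean 12.58). Levels of the latter were 12.43, 12.58, 12.69 and 12.62, against 11.88, 12.20 and 12.07 in SCNT and 11.96, 12.03, 11.95 and 12.15 in parthenogenetic embryos of the same stage. Fertilized arrays lay above both. The log2 difference from fertilized embryos was -0.53 for SCNT (SE 0.09, adjusted p = 0.000131) and -0.56 for parthenogenetic embryos (SE 0.08, adjusted p = 2.1e-06), and the latter 2 origins differed by 0.03 (adjusted p = 0.88, 95% interval -0.15 to 0.21). The SCNT difference was -0.42 and did not pass when scaled to the hybridization controls (adjusted p = 0.245).

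At the 2-cell stage Gdf9 was 10.64, 10.58, 10.78 and 10.77 in fertilized, 10.07, 9.97, 9.92 and 9.87 in SCNT, and 11.56, 11.55, 11.68 and 11.63 in parthenogenetic embryos. None of these groups overlapped. The fall from the 1-cell stage was 1.89 (SE 0.08, adjusted p = 2.56e-22) in fertilized and 2.09 (SE 0.09, adjusted p = 1.48e-22) in SCNT embryos, and these did not differ beyond the threshold (-0.21, adjusted p = 0.267). In parthenogenetic embryos it was a log2 difference of -0.41 (SE 0.08, adjusted p = 4.89e-05), smaller than in fertilized embryos by 1.47 (SE 0.12, adjusted p = 5.1e-13).

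With amanitin Gdf9 was 12.97, 12.59, 12.78 and 12.93 in 1-cell and 11.72, 11.76, 11.87 and 11.67 in 2-cell fertilized embryos. In SCNT embryos it was 11.78, 11.95, 11.94 and 11.88 at the 1-cell and 10.59, 10.70, 10.89 and 10.71 at the 2-cell stage. On this scale Gdf9 was thus the one member that fell between the stages in all 5 comparisons, also with amanitin, by 1.06 in fertilized (SE 0.08, adjusted p = 9.61e-14) and by 1.16 in SCNT embryos (SE 0.08, adjusted p = 1.46e-15). Scaled to the hybridization controls, Zp2 was also called lower in all 5, with differences from -1.99 to -0.50. The 2-cell amanitin arrays of Gdf9 nonetheless lay above the untreated 2-cell ones in both origins, by 1.06 (SE 0.08, adjusted p = 1.32e-14) and 0.77 (SE 0.08, adjusted p = 7.71e-11), although the second turned to -0.40 when scaled to the hybridization controls, or 0.65 above the median of all genes there.

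The amanitin effect on Gdf9 at the 2-cell stage was smaller in SCNT than in fertilized embryos by a narrow margin (-0.29, SE 0.12, adjusted p = 0.0417). It did not pass with intensities not normalized further (-0.34, adjusted p = 0.0517) or scaled to array medians (-0.40, adjusted p = 0.0549). That call was lost on leaving out any one of 9 of the 16 arrays: untreated SCNT replicate 1 (-0.26) or 2 (-0.29), SCNT amanitin replicate 1 (-0.25), 2 (-0.29) or 4 (-0.29), untreated fertilized replicate 1 (-0.28) or 2 (-0.26), and fertilized amanitin replicate 2 (-0.29) or 3 (-0.26).

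Bmp15, whose product acts with GDF9 on cumulus cells and is encoded on the X chromosome, had overlapping levels in the 3 untreated 1-cell groups. Arrays were at 11.999, 12.32, 12.06 and 12.05 in fertilized, 12.21, 12.21 and 12.09 in SCNT, and 12.23, 12.34, 12.14 and 12.17 in parthenogenetic embryos. The origins overlapped, with differences of 0.07 (adjusted p = 0.883) and 0.11 (adjusted p = 0.57) from fertilized embryos. At the 2-cell stage it was 9.35, 9.71, 10.25 and 9.92 in fertilized, 10.32, 10.63, 10.06 and 10.56 in SCNT, and 12.05, 11.88, 12.13 and 12.22 in parthenogenetic embryos.

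Bmp15 thus fell in fertilized and SCNT embryos without overlap, while the 2-cell parthenogenetic arrays overlapped the 1-cell ones, 3 of the 4 lying below the lowest of them. The log2 difference was -2.30 (SE 0.12, adjusted p = 2.1e-20) in fertilized, -1.78 (SE 0.12, adjusted p = 7.47e-16) in SCNT and -0.15 (SE 0.12, adjusted p = 0.298) in parthenogenetic embryos, with a 95% interval of -0.38 to 0.08 for the last. The parthenogenetic difference was smaller than the fertilized one by 2.15 (SE 0.16, adjusted p = 1.72e-13). That of SCNT embryos was smaller by 0.52 (SE 0.17, adjusted p = 0.0246), a call lost without 1-cell fertilized replicate 2 (0.45), 1-cell SCNT replicate 4 (0.48), 2-cell SCNT replicate 2 (0.44) or 4 (0.47), or 2-cell fertilized replicate 1 (0.37). The SCNT difference also did not pass with array medians (0.18, adjusted p = 0.628), with hybridization controls (0.21, adjusted p = 0.707), with intensities not normalized further (0.36, adjusted p = 0.175), with the mean of the probe sets (0.18, adjusted p = 0.567), without a trend (0.52, adjusted p = 0.0535) or with only the arrays compared (0.52, adjusted p = 0.119).

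With amanitin, 2-cell levels of Bmp15 were 12.14, 12.22, 12.29 and 12.41 in fertilized and 11.60, 11.77, 11.69 and 11.77 in SCNT embryos, against 11.86, 11.89, 11.85 and 11.95 and 12.40, 12.36, 12.31 and 12.33 at the 1-cell stage. The 2-cell amanitin arrays lay above the untreated ones without overlap in both origins. The difference was 2.46 (SE 0.12, adjusted p = 2.47e-21) in fertilized and 1.31 (SE 0.12, adjusted p = 3.32e-13) in SCNT embryos, and the origins differed by -1.15 (SE 0.16, adjusted p = 2.63e-07). Scaled to the hybridization controls the SCNT difference was 0.43 and still passed (adjusted p = 0.0187). Between the stages with amanitin Bmp15 rose by 0.38 in fertilized embryos (adjusted p = 0.00729), a call lost when scaled to array medians (0.18) or to the hybridization controls (0.17), and fell by 0.64 in SCNT embryos (adjusted p = 7.97e-06).

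The 3 Bmp15 probe sets gave the same direction for the main falls but not the same size. From the 1-cell to the 2-cell stage the log2 difference in fertilized embryos was -2.30 for 1420005_s_at, the one used above, -1.74 for 1420006_at and -3.67 for 1450210_at. In SCNT embryos the 3 gave -1.78, -1.93 and -3.46. The probe sets parted in parthenogenetic embryos, where 1420005_s_at and 1420006_at each gave -0.15 and did not pass, while 1450210_at fell by 1.06 (adjusted p = 1.4e-07). The rise between the stages with amanitin in fertilized embryos was 0.38, 1.21 and -0.11 in the same order. The dimmest of the 3, 1420006_at, showed no difference between the origins in the 2-cell amanitin effect (2.14 in fertilized, 2.19 in SCNT embryos; difference 0.05, adjusted p = 0.933), so that difference rests on the other 2 probe sets, with -1.15 and -1.09. Likewise 1420006_at gave -0.03 between untreated 2-cell SCNT and fertilized embryos, where 1420005_s_at gave 0.59 and 1450210_at 0.42.

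**Figure D2:**
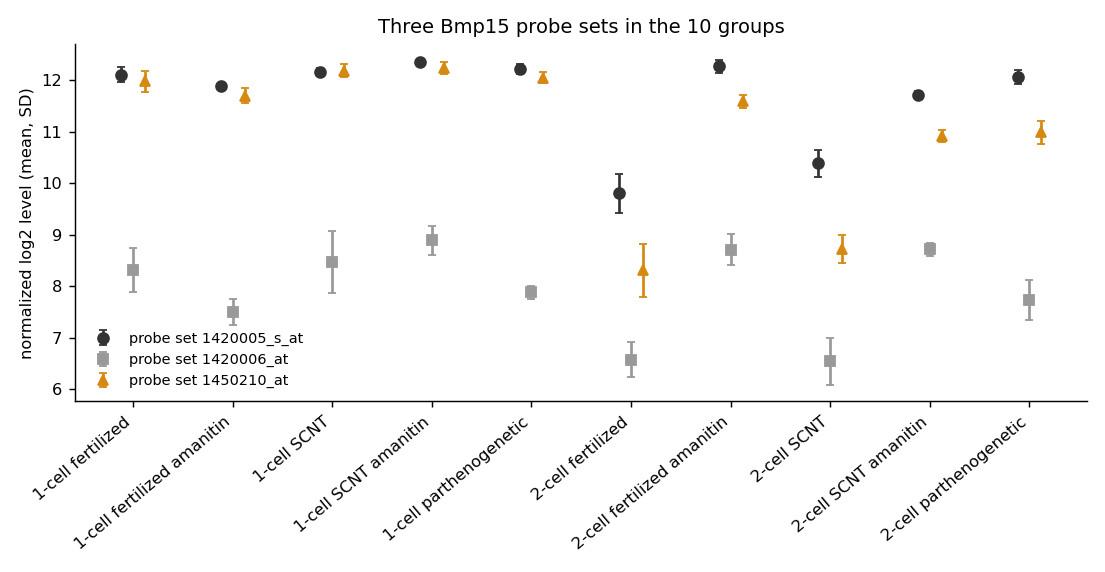
Normalized log2 level (y axis) of the 3 Bmp15 probe sets in the 10 groups (x axis). Points are group means and bars their SD. All 3 probe sets are lowest in untreated 2-cell fertilized and SCNT embryos. In parthenogenetic embryos 1450210_at is called lower at the 2-cell than at the 1-cell stage (10.99 against 12.05). The smaller difference of 1420005_s_at (12.07 against 12.22) did not pass.

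Set side by side, the stage change without amanitin was called lower for 4 of the 5 genes in fertilized embryos, where 34.2% of all genes were called lower, for 5 of 5 in SCNT embryos (34.4% of all genes) and for 2 of 5 in parthenogenetic embryos (27.4%), where all 5 were called lower with array medians, Bmp15 at -0.65 (adjusted p = 0.000172) and Gdf9 at -0.96. None was called higher in any of these, where 25.8%, 26.3% and 21.7% of all genes were. The median difference of the 5 genes was -1.89, -1.73 and -0.15, beside -0.13, -0.14 and -0.04 over all genes. The 3 comparisons share no arrays. The count of 5 in untreated SCNT embryos was 4 when scaled to the hybridization controls, where Zp1 did not pass. Zp1 also did not pass there with intensities not normalized further. With amanitin the same change was called lower for 3 and higher for 1 of the 5 genes in fertilized embryos, beside 19% and 21.5% of all genes (4 lower and 0 higher with array medians or hybridization controls, where Zp1 passed and Bmp15 did not), and lower for 2 and higher for 3 in SCNT embryos, beside 29.8% and 25.6%. The untreated stage change differed between SCNT and fertilized embryos for 3 of the 5, beside 19% of all genes (0 when scaled to the hybridization controls and 1 when only the arrays compared were fitted), and between parthenogenetic and fertilized embryos for 4, beside 35.4%. Between the SCNT stages with amanitin the counts were 4 lower and 1 higher with hybridization controls, and 2 lower and 1 higher with array medians. Over all genes, 7440 were lower and 873 higher there with hybridization controls, and 5361 and 2537 with array medians. Between the fertilized stages with amanitin 3695 were lower and 387 higher with hybridization controls, and 4410 and 1003 with array medians.

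**Figure D3:**
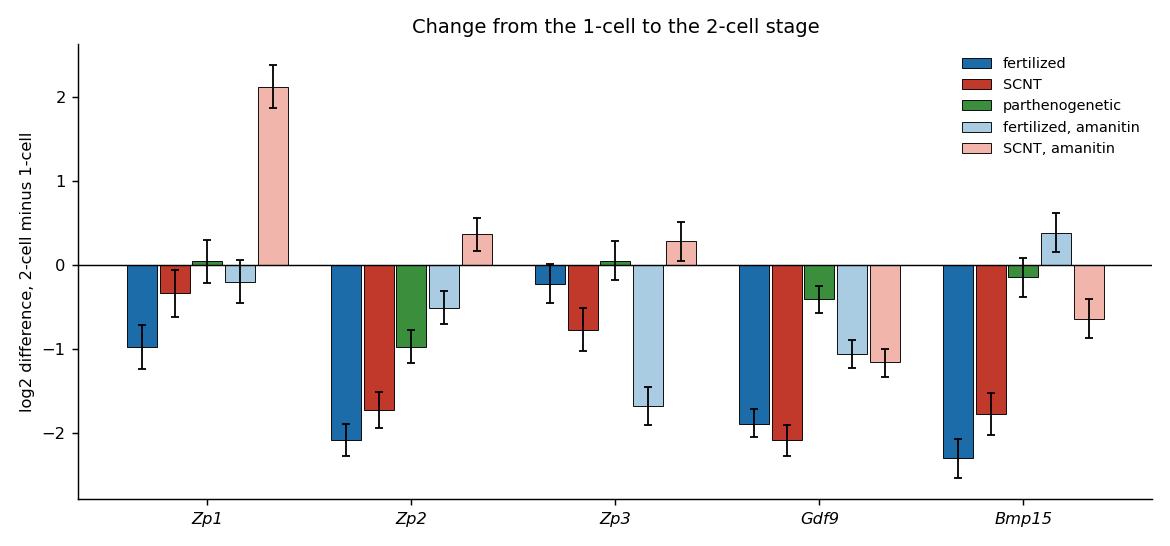
Log2 difference of the 2-cell from the 1-cell stage (y axis) for the 5 genes (x axis), with one bar for each origin and treatment and 95% confidence intervals from the limma fit. Zp2 and Gdf9 are lower in all 3 untreated origins; with amanitin Zp1 is 2.12 higher in SCNT embryos and Zp3 is 1.68 lower in fertilized ones.

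At the 1-cell stage amanitin gave no called difference for any of the 5 genes in either origin, by limma at an adjusted p of 0.05. The background was low too, at 6.03% of genes in fertilized and 0.429% in SCNT embryos. The differences in fertilized embryos were 0.22 for Zp1, -0.08 for Zp2, 0.33 for Zp3, 0.24 for Gdf9 and -0.22 for Bmp15, and 2 of these, Zp3 and Gdf9, had an unadjusted p under 0.05 (0.0066 and 0.00679). Those in SCNT embryos ran from -0.16 to 0.18, none with an unadjusted p under 0.05. The effects in the 2 origins differed for 0 of the 5 by limma, beside 2.41% of all genes, with an unadjusted p under 0.05 for 3 (Zp3 at -0.38, Gdf9 at -0.40 and Bmp15 at 0.40). The Bmp15 probe set 1420006_at, not used for these calls, was called lower with amanitin in fertilized embryos (-0.81, limma adjusted p = 0.0325 over kept probe sets). It was also called for the difference between the origins (1.23, adjusted p = 0.0478), while 1450210_at passed in neither (-0.27 and 0.32). The call at 1 cell depended on the scaling: relative to array medians Zp1, Zp2 and Zp3 were called higher in fertilized embryos (0.60, 0.32 and 0.71), where all genes moved up by 0.18, and leaving out replicate 2 of the fertilized amanitin arrays let Gdf9 pass (0.31, adjusted p = 0.0284).

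In 2-cell embryos all 5 genes were called with amanitin in both origins. In fertilized embryos 4 were higher and 1 lower with amanitin, where 38.6% of all genes were higher and 25.8% lower. In SCNT embryos all 5 were higher, beside 39.6% of all genes higher and 29.7% lower, although Zp3 and Gdf9 were called lower when scaled to the hybridization controls. The medians of the 5 genes were 1.06 and 1.31, beside 0.27 and 0.28 over all genes. The amanitin effect differed between the stages for all 5 genes in each origin, although for Zp1 in fertilized embryos (0.78) it was 0.29 with array medians (adjusted p = 0.193) and 0.06 with hybridization controls (adjusted p = 0.911) and passed with neither. These differences ran from -1.45 (Zp3) to 2.68 (Bmp15) in fertilized embryos, beside 54.6% of all genes called, and from 0.93 (Gdf9) to 2.46 (Zp1) in SCNT embryos, beside 58.5%. In SCNT embryos it did not pass for Zp3 (0.07) and Gdf9 (0.15) when scaled to the hybridization controls.

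**Figure D4:**
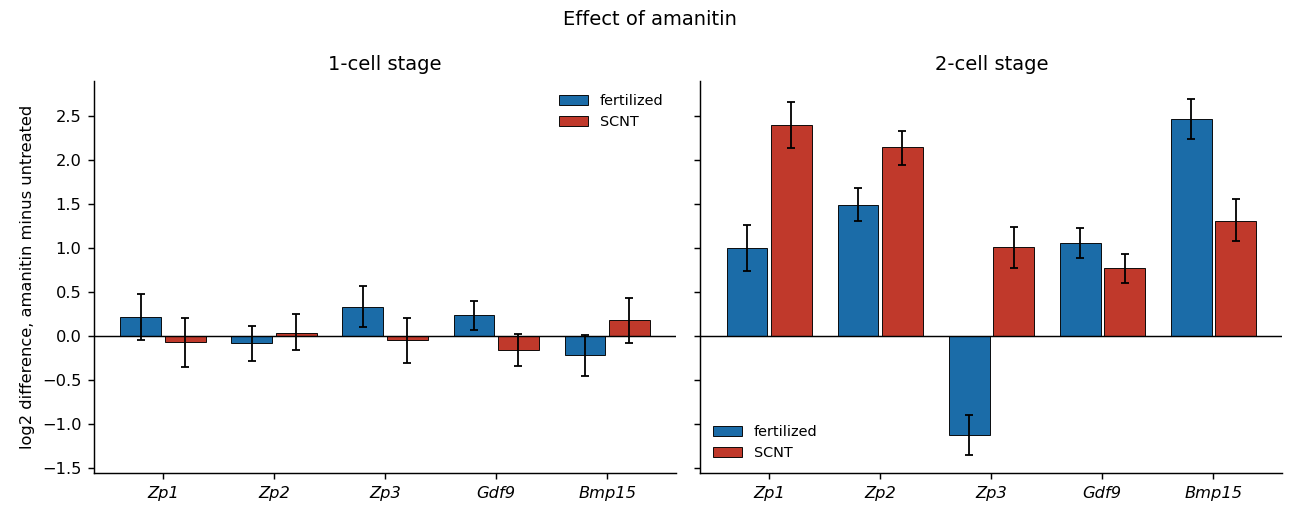
Log2 difference of amanitin-treated from untreated embryos (y axes) for the 5 genes (x axes) at the 1-cell stage (left) and the 2-cell stage (right), in fertilized (blue) and SCNT (red) embryos, with 95% confidence intervals from the limma fit. Differences are within 0.33 of 0 at the 1-cell stage; at the 2-cell stage all are positive except Zp3 in fertilized embryos (-1.12), and those of Zp3 and Gdf9 in SCNT embryos are negative when scaled to the hybridization controls.

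The size of the amanitin effect at the 2-cell stage differed between SCNT and fertilized embryos for all 5 genes, beside 38.9% of all genes. It was larger in SCNT embryos for Zp1 (by 1.39, SE 0.18, adjusted p = 4.93e-08) and Zp2 (by 0.65, SE 0.14, adjusted p = 0.000146, but -0.16 when scaled to the hybridization controls), and of opposite sign for Zp3 unless scaled to the hybridization controls. It was smaller in SCNT embryos for both growth factors, though for Gdf9 it did not pass with array medians or with intensities not normalized further. Scaled to the hybridization controls, neither the difference for Zp1, 0.49, nor that for Zp2 passed (adjusted p = 0.17 and 0.605). Between the amanitin-treated 2-cell groups the zona transcripts and the growth factor transcripts differed in sign. SCNT embryos with amanitin were higher than fertilized ones with amanitin by 1.47 for Zp1, 1.12 for Zp2 and 0.96 for Zp3, and differed by -1.03 for Gdf9 and -0.56 for Bmp15, all called, beside 18.6% of all genes higher and 24.6% lower. Under hybridization-control scaling Zp2 (0.36, adjusted p = 0.0708) and Zp3 (0.11, adjusted p = 0.613) no longer passed.

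**Figure D5:**
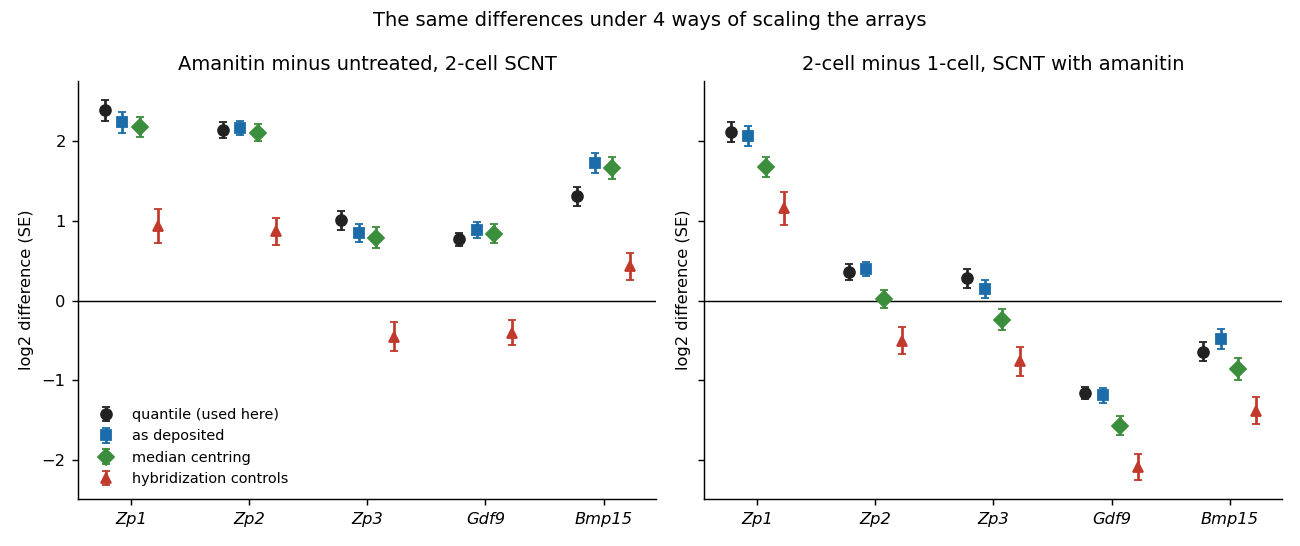
Log2 difference (y axes) of the 5 genes (x axes) under 4 ways of scaling the arrays, for amanitin-treated minus untreated 2-cell SCNT embryos (left) and for 2-cell minus 1-cell SCNT embryos with amanitin (right). Points are estimates and bars their SE. Scaling to the hybridization controls lowers every difference in both panels and turns that of Zp3 and Gdf9 (left, to -0.45 and -0.40) and of Zp2 and Zp3 (right, to -0.50 and -0.76) below 0; array medians also turn Zp3 (right, to -0.24).

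At the 1-cell stage 3 of the 5 genes were called lower in SCNT than in fertilized embryos, beside 2.69% of all genes (2.87% were higher), and 2 of 5 lower in parthenogenetic than in fertilized embryos, beside 9.52% (10.9% were higher). These comparisons share the fertilized arrays. The third gene of the first comparison was Zp1 (-0.56, SE 0.14, adjusted p = 0.0101), a call lost without 1-cell SCNT replicate 3 (-0.49, adjusted p = 0.0733). None of the 3 passed when scaled to the hybridization controls. Between parthenogenetic and fertilized embryos Zp1 differed by -0.32 and did not pass (adjusted p = 0.0702), though it did without 1-cell fertilized replicate 4 (-0.40, adjusted p = 0.0369). Between SCNT and parthenogenetic embryos only Zp3 passed, higher by 0.54, beside 7% of all genes called higher and 7.19% lower.

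Among the amanitin-treated 1-cell embryos, SCNT arrays were lower than fertilized ones for Zp1 (-0.85), Zp3 (-0.99) and Gdf9 (-0.93), and higher for Bmp15 (0.46) and for Zp2 (0.26, but -0.10 scaled to array medians and -0.22 to the hybridization controls), all called, beside 11.4% of all genes lower and 10.1% higher. The Zp2 arrays overlapped, and its call (adjusted p = 0.0475) was lost without SCNT amanitin replicate 1 (0.21), 2 (0.27) or 3 (0.22) or fertilized amanitin replicate 2 (0.20) or 3 (0.24). Bmp15 did not pass when scaled to array medians (0.37) or to the hybridization controls (0.24).

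Untreated 2-cell SCNT and fertilized embryos differed for 4 of the 5 genes, 2 in each direction, beside 14.3% of all genes higher and 16.3% lower. SCNT embryos had more Zp2 (0.48, SE 0.10, adjusted p = 0.000117) and Bmp15 (0.59, SE 0.12, adjusted p = 8.84e-05), and less Zp3 (-1.16, SE 0.12, adjusted p = 1.85e-10) and Gdf9 (-0.74, SE 0.08, adjusted p = 2.74e-09). Bmp15 arrays overlapped, and the difference was 0.28 scaled to array medians and did not pass (adjusted p = 0.148). Zp1 differed by 0.08 (adjusted p = 0.721, 95% interval -0.18 to 0.34).

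Parthenogenetic 2-cell embryos differed from fertilized ones for all 5 genes, beside 26.4% of all genes higher and 21% lower. They held more Zp1 (0.69), Zp2 (1.13), Gdf9 (0.91) and Bmp15 (2.26), and less Zp3 (-0.88), with no overlap for any gene. SCNT embryos were lower than parthenogenetic ones for all 5 (Zp3 turned to 0.21 when scaled to the hybridization controls), beside 30.1% of all genes lower and 24.4% higher, with differences of -0.61, -0.65, -0.29, -1.65 and -1.68 in the order Zp1, Zp2, Zp3, Gdf9 and Bmp15. That of Zp3 was lost without 2-cell SCNT replicate 1 (-0.21) or 2 (-0.26) or parthenogenetic replicate 3 (-0.26) or 4 (-0.25). Scaled to the hybridization controls, Zp1 did not pass in either comparison (0.24 and -0.04), and SCNT against parthenogenetic embryos Zp2 did not pass (-0.16).

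Other genes of zona and growth factor biology were followed through a list of 46, of which 42 were tested. From the 1-cell to the 2-cell stage 25 of the 42 were lower and 5 higher in fertilized embryos, beside 34.2% and 25.8% of all genes, with a median of -0.77 beside -0.13 over all genes. In SCNT embryos 22 were lower and 8 higher (median -0.74), beside 34.4% and 26.3% of all genes, and in parthenogenetic embryos 14 were lower and 4 higher (median -0.27), beside 27.4% and 21.7%. The parthenogenetic counts moved with the processing, to 21 lower when scaled to array medians, to 8 higher with intensities not normalized further and to 2 higher with the mean of all probe sets of a gene.

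Oocyte transcription factors and gamete proteins were among the list's largest differences between the fertilized stages. Nobox, a homeobox factor that activates oocyte genes including Gdf9, fell by 5.39 (SE 0.28, adjusted p = 6.5e-20), and Lhx8, another oocyte homeobox factor, fell by 3.41. Oosp2, an oocyte-secreted protein, fell by 3.95, and Izumo1r, the egg receptor for sperm IZUMO1, fell by 3.21. Fgf8, an oocyte growth factor that acts with BMP15 on cumulus cells, fell by 3.28. Smad7, an inhibitor of TGF-beta signalling, rose by 3.94 (SE 0.25, adjusted p = 2.34e-17). Figla, the E-box factor of zona genes, gave -0.35 (adjusted p = 0.476), Sohlh1 -0.29 (adjusted p = 0.308) and Cd81 0.10 (adjusted p = 0.837), and none of these passed.

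SCNT embryos gave called differences for the same 6 genes: -3.95 for Nobox, -3.75 for Lhx8, -4.27 for Oosp2, -3.80 for Izumo1r, -3.42 for Fgf8 and 3.66 for Smad7. In parthenogenetic embryos Nobox gave -3.15, Lhx8 -2.09, Izumo1r -2.15, Oosp2 -2.06 and Smad7 3.25. By role, in fertilized embryos 8 of 14 zona, gamete and transcription genes, 4 of 5 ligand and KIT genes, 4 of 8 receptor genes, 5 of 7 SMAD genes, 3 of 4 convertase genes and 1 of 4 binding inhibitors were lower, beside 34.2% of all genes. With so few genes in a role, shares such as 4 of 8 and 1 of 4 lie near that background.

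With amanitin at the 2-cell stage the list was higher for 23 and lower for 7 of 42 genes in fertilized embryos (median 0.68, beside 0.27 over all genes, of which 38.6% were higher and 25.8% lower), and higher for 22 and lower for 7 in SCNT embryos (median 0.77, beside 0.28, with 39.6% higher and 29.7% lower). Scaled to the hybridization controls, the list was higher for 15 and lower for 8 in fertilized embryos and turned to 11 higher and 23 lower in SCNT embryos, with a median of -0.64 beside -1.05 over all genes. Treated minus untreated differences in fertilized embryos were 4.81 for Nobox, 2.85 for Lhx8, 2.81 for Fgf8 and 2.70 for Tgfb2, a TGF-beta ligand. They were -4.13 for Smad7 and -2.72 for Acvr2a, a type II activin receptor. Between the fertilized stages with amanitin, Nobox (-0.65), Fgf8 (-0.55), Tgfb2 (-0.05) and Smad7 (-0.08) were not called. Lhx8 (-0.59) and Acvr2a (-1.09) were called lower there. Treated minus untreated differences in SCNT embryos were 3.11 for Fgf8, 2.95 for Bmpr1b, a type I BMP receptor, and 2.85 for Lhx8. They were -3.67 for Smad7, -2.88 for Acvr2a and -3.13 for Cd9, an egg membrane protein needed for sperm fusion. Between the SCNT stages with amanitin, Fgf8 (-0.22), Smad7 (0.13) and Acvr2a (-0.41) were not called. Bmpr1b (1.56) was called higher there, and Lhx8 (-0.74) and Cd9 (-3.15) were called lower. At the 1-cell stage amanitin was called for 4 of the 42 in fertilized embryos (Grem1 -1.58, Smad3 0.72, Bmpr1b 0.67 and Tgfbr1 0.66) and for 0 in SCNT embryos, beside 6.03% and 0.429% of all genes, so the fertilized share is near its background. The count called lower in fertilized embryos went from 1 to 0 without 1-cell fertilized replicate 2 or fertilized amanitin replicate 2, and the count called higher from 3 to 12 when scaled to array medians. In SCNT embryos 2 were called lower without SCNT amanitin replicate 2, and 7 when scaled to the hybridization controls.

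The likeness of the 5 profiles was described by Pearson's r of the 10 group means, which share the same arrays and carry no test. Zp2 and Bmp15 were most alike (0.824), followed by Gdf9 and Bmp15 (0.738) and by Zp1 and Zp2 (0.635). Zp2 and Gdf9 gave 0.585, Zp3 and Gdf9 0.446, Zp1 and Bmp15 0.383, Zp1 and Zp3 0.297, Zp2 and Zp3 0.261 and Zp1 and Gdf9 0.135, and Zp3 and Bmp15 gave -0.042. Among the 5, the closest to Zp1 was Zp2, the closest to Zp2 was Bmp15 and the closest to Zp3 was Gdf9. For Zp1, 16.2% of all tested genes had a profile closer to it than that of Zp2 and 39.8% closer than that of Zp3. Even for the pair most alike, 9% of genes were closer to Zp2 than Bmp15 was, and 9.3% closer to Bmp15 than Zp2 was. For Gdf9 and Bmp15 these shares were 14.7% and 16.7%.

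Of all tested genes, the closest to Zp1 were Ext1 (0.9723), Gm33738 and Pdik1l (0.9682), and to Zp2 3830406C13Rik (0.9924), Sult4a1 and Adgra3 (0.9915). Those closest to Gdf9 were Smug1 (0.991), a DNA glycosylase, Tmem9 (0.9782) and Zar1 (0.9764), a maternal-effect gene, and to Bmp15 Wee2 (0.9888), an oocyte kinase, Rab7 (0.9853) and Parp12 (0.9827). The profile of Zp3 had no such close match, with Smg6 (0.9074), Arhgef10 (0.8961) and Zc3h13 (0.8844) at the top.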

How the data were processed

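The authors deposited probe set intensity on a linear scale for 45101 probe sets of each array, scaled so that the mean of every array after trimming 2% at each end is 150, as the values show; the software is not given in the sources used here. Control probe sets (64) stayed out of the tests. The deposited intensity plus 6.9, the 20th percentile of all values, was taken as log2 and quantile normalized, since array medians ran from 4.916 to 5.739. Probe sets above 5.34 on at least 4 arrays were kept (31153). Of all probe sets, 34945 are annotated to 1 gene, 932 to several and 9160 to none, by GEO's platform annotation, and the kept ones with 1 gene gave 14916 genes.

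The fit took the means of all 10 groups (limma 3.58.1, R 4.3.3, eBayes with a trend, 29 residual degrees of freedom), and 23 contrasts were read from it. These steps were tested on simulated data. The number of arrays limits the precision.

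The 5 genes, the pathway list and the egg, 2-cell, cumulus and blood marker lists were chosen with earlier results of these data known. Named are the 5 members, per comparison up to 6 called genes of the pathway list with the largest differences and up to 3 that were not called, the 3 genes with the profile most like each member's, and markers that move with a result. Alternatives were no further normalization, centring on array medians or on the 18 hybridization control probe sets, constants of 1.8 and 22.1, no filter, averaging of probe sets, a fit without trend, array weights, a fit of only the compared arrays, the replicate number as a block, and leaving out single arrays. Leaving out 1-cell fertilized replicate 1 and 1-cell SCNT amanitin replicate 4 together, each other Bmp15 probe set, and the counts of the pathway list under these settings were added after seeing the data. Of 3 blood markers 1, Hba-a1, was tested, with a summed intensity of at most 47.61 on any array. Same-numbered samples did not deviate together: over 45 pairs of groups the mean correlation of deviations ran from -0.035 to 0.088, and in 0 of them was every correlation above 0.1.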

Additional observations from a re-analysis of the deposited data

Results flagged for a closer look

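One array stood apart from the rest of its group: Zp1 on replicate 4 of the untreated 2-cell fertilized embryos was at 7.70, while the other 3 arrays lay between 7.89 and 7.92. Of 45 groups of 4 values checked this was the only one, and chance flags about 1 in 20. Without it no call on Zp1 changed.

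The other results named here are differences of an effect between groups that passed limma's test, 22 of 30 tested. Of all genes, 38.9% were called for the 2-cell amanitin effect between origins and 2.41% for the 1-cell one. For the untreated stage change, 19% were called between SCNT and fertilized and 35.4% between parthenogenetic and fertilized embryos. For the amanitin effect between stages, 54.6% were called in fertilized and 58.5% in SCNT embryos. The 2-cell amanitin effect of SCNT minus that of fertilized embryos was 1.39 for Zp1, 0.65 for Zp2, 2.13 for Zp3, -0.29 for Gdf9 and -1.15 for Bmp15. That of Gdf9 did not pass with array medians (-0.40, adjusted p = 0.0549) or with intensities not normalized further (-0.34, adjusted p = 0.0517). The untreated stage change of SCNT minus that of fertilized embryos was 0.63 for Zp1, -0.55 for Zp3 and 0.52 for Bmp15. The Zp1 value was lost without 1-cell SCNT replicate 3 (0.57, adjusted p = 0.0519).

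The untreated stage change of parthenogenetic minus that of fertilized embryos was 1.01 for Zp1, 1.10 for Zp2, 1.47 for Gdf9 and 2.15 for Bmp15, while the Zp3 difference of 0.28 did not pass. The amanitin effect at the 2-cell minus that at the 1-cell stage was, in fertilized embryos, 0.78 for Zp1, 1.57 for Zp2, -1.45 for Zp3, 0.83 for Gdf9 and 2.68 for Bmp15. That of Zp1 did not pass with array medians (0.29, adjusted p = 0.193) or hybridization controls (0.06, adjusted p = 0.911). In SCNT embryos it was 2.46 for Zp1, 2.09 for Zp2, 1.05 for Zp3, 0.93 for Gdf9 and 1.14 for Bmp15.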

How the results depend on the processing

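Scaling moved the results most. Against quantile normalization, the median of all genes shifted by -0.13 to 0.24 with intensities not normalized further, by -0.26 to 0.18 with array medians and by -1.33 to 0.49 with hybridization controls, over 23 comparisons. With array medians the difference turned to -0.45 for Zp1 and -0.46 for Zp3 between the parthenogenetic stages, to -0.24 for Zp3 between the SCNT stages with amanitin, to 0.32 for Zp2 with amanitin in 1-cell fertilized embryos, and to -0.10 for Zp2 between 1-cell SCNT and fertilized embryos with amanitin. With hybridization controls the last turned to -0.22, Zp2 and Zp3 between the SCNT stages with amanitin to -0.50 and -0.76, Zp3 and Gdf9 with amanitin in 2-cell SCNT embryos to -0.45 and -0.40, Zp3 between untreated 2-cell SCNT and parthenogenetic embryos to 0.21, and the Zp2 difference of the 2-cell amanitin effect between origins to -0.16. With 1420006_at, Bmp15 turned to -0.03 between untreated 2-cell SCNT and fertilized embryos, to 0.01 between those with amanitin, to 0.05 for the difference of their amanitin effects and to -0.19 for that of their untreated stage changes, and with 1450210_at to -0.11 between the fertilized stages with amanitin. The cause of these reversals was not tested.

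Counts of the 5 genes called moved as follows. With array medians they went from 0 to 3 for amanitin in 1-cell fertilized embryos, from 2 to 5 for the parthenogenetic stages, from 5 to 3 for the SCNT stages with amanitin and for 1-cell origin with amanitin, and from 0 to 2 for the difference of 1-cell amanitin effects. The calls over all genes moved too. For amanitin in 1-cell fertilized embryos they went from 535 higher and 365 lower to 2714 and 155. Between the parthenogenetic stages they went from 3238 higher and 4090 lower to 2126 and 5581. The member count for amanitin in 1-cell fertilized embryos was 1 with intensities not normalized further, with the mean of probe sets, with array weights, with only the arrays compared and without both doubted arrays. With hybridization controls they went from 0 to 1 for amanitin in 1-cell SCNT embryos, from 3 to 0 for 1-cell SCNT against fertilized embryos, from 5 to 2 for 2-cell SCNT against parthenogenetic embryos, and from 5 to 3 for both origin comparisons with amanitin, for the difference of 2-cell amanitin effects between origins and for that between stages in SCNT embryos. Over all genes, higher and lower calls for amanitin in 1-cell SCNT embryos moved from 12 and 52 to 0 and 940. Those for 1-cell SCNT against fertilized embryos moved from 428 and 401 to 166 and 30. Those for 2-cell SCNT against parthenogenetic embryos moved from 3639 and 4496 to 5033 and 2028. The difference of stage changes between SCNT and fertilized embryos went from 3 to 0, and to 1 with only the arrays compared. That of 1-cell amanitin effects was 2 with hybridization controls and 1 with array weights. All 1-cell origin calls together went from 11 to 7 with hybridization controls. Leaving out 1 array gave 19 to 21 stage calls (20 with all arrays), 10 to 11 amanitin calls (10), 10 to 12 origin calls at the 1-cell stage (11), 18 to 19 at the 2-cell stage (19) and 20 to 24 interaction calls (22), 0 to 1 for amanitin in 1-cell fertilized embryos and for the difference of 1-cell amanitin effects.

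For the pathway list, whose alternatives were chosen after seeing the data, counts called higher between the parthenogenetic stages were 4, 8 with intensities not normalized further and 2 with the mean of probe sets. For amanitin in 1-cell fertilized embryos they were 3, and 12 with array medians, beside 535 and 2714 over all genes. Counts called lower there were 1, 4 with intensities not normalized further, 2 with hybridization controls or array weights, 0 with only the arrays compared and 0 to 1 on leaving out 1 array. In 1-cell SCNT embryos 0 were lower, 7 with hybridization controls and 0 to 2 on leaving out 1 array. Over all genes the lower count there was 52, and 940 with hybridization controls. At the 2-cell stage hybridization controls moved the higher counts from 23 to 15 in fertilized and from 22 to 11 in SCNT embryos, and the lower count in SCNT embryos from 7 to 23. Over all genes they moved the higher counts from 5753 to 3140 and from 5903 to 1428, and the lower count in SCNT embryos from 4424 to 9382.

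Among all called genes, hybridization controls moved the share called higher from 60% to 39.5% for amanitin in 2-cell fertilized and from 57.2% to 13.2% in 2-cell SCNT embryos, from 46.3% to 10.5% between the SCNT stages with amanitin and from 53.1% to 9.48% between the fertilized ones. Array medians moved it from 44.2% to 27.6% between the parthenogenetic stages. The share moved by over 10 points in 18 of 23 comparisons with hybridization controls, in 12 with array medians and in 5 with intensities not normalized further.

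With the replicate number as a block, which does not pair these samples, the Zp1 difference between the untreated SCNT stages was -0.31 and did not pass (adjusted p = 0.0506), the Zp2 difference between SCNT and fertilized stage changes was 0.37 and passed (adjusted p = 0.0429), and no other call on the 5 genes changed.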
